A study of Mus musculus with 6 samples.

Results

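Integrins are cell surface receptors made of 1 alpha and 1 beta subunit, and laminins are secreted trimers of 1 alpha, 1 beta and 1 gamma chain that build the basement membrane. The genes of both families were taken by their symbols from an FPKM table (fragments scaled for transcript length and library depth) of mouse distal colon, which gave 38 of its 19844 genes. There were 27 integrin genes, 18 for alpha and 9 for beta subunits, and 11 laminin genes, with 5 alpha, 3 beta and 3 gamma chains.

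In the colon, crypt epithelium rests on a laminin-rich basement membrane and is anchored to it by integrins that bind laminin, chiefly through the beta-1 and beta-4 subunits. Fibroblasts and muscle use other beta-1 integrins to hold collagen and fibronectin. White blood cells use beta-2 and beta-7 integrins to leave vessels and to stay in the mucosa. After injury, epithelial cells migrate over the wound on laminin.

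The libraries came from 3 ChREBP knockout (KO) and 3 wild-type (WT) C57BL6 mice. All 6 animals had received AOM/DSS, that is the carcinogen azoxymethane and the colitis-inducing polymer dextran sulfate sodium, and tissue was taken on day 17. ChREBP, encoded by Mlxipl, is a glucose-responsive transcription factor, and the series asks whether it acts on colon cancer through Wnt signalling. Sex is labelled female throughout, age is not given in the labels, and neither the deleted part of Mlxipl nor the cells that lost it is described.

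Depth was estimated at 17675000 to 18275000 reads per library from short genes whose values step by single reads, and summed FPKM lay between 439106.90 and 478499.99, highest in KO replicate 2. Mlxipl read 3.40, 5.66 and 5.04 FPKM in KO libraries, against 5.84, 7.49 and 7.27 FPKM in WT libraries. The KO values were all below the WT values, but transcript remained (log2 fold change -0.48, SE 0.18, 95% interval -0.89 to -0.07, limma adjusted p = 0.9995). In contrast to the sex label, Y-linked Eif2s3y read 23.28 to 28.23 FPKM in KO and 24.78 to 30.75 FPKM in WT libraries, and Xist did not exceed 0.04 FPKM in any library. The tissue label fitted its markers: 8 of 8 epithelial markers were present, with summed levels of 5410 to 6450 FPKM in KO and 5330 to 5950 FPKM in WT libraries, as were 7 of 7 smooth muscle markers (2880 to 4400 FPKM in KO and 2690 to 3680 FPKM in WT).

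Integrin and laminin transcripts did not separate KO from WT colons by the test across all genes. Of the 38 genes, 31 reached 1 FPKM in at least 3 libraries and were tested, and 0 passed limma at an adjusted p of 0.05, where 0.0151% of all 13247 tested genes did. At an unadjusted limma p under 0.05 there were 2 of the 31, against 3.4% of all tested genes. They were Itgb6, higher in KO as 1.7% of all genes were at that threshold, and Itgb2, lower in KO as a further 1.7% were. An exact two-sided permutation test of 1 gene in 3 against 3 libraries cannot go below 0.1, so the limma fit was the sole test. Log2 fold changes (KO minus WT, on the log2(FPKM + 1) scale, which understates low genes) were positive for 13 (41.9%, against 52.7% of all tested genes) and negative for 18 of the 31, with a median of -0.02, and the median of all tested genes was 0.01. With libraries rescaled to the same FPKM total the split became 9 positive and 22 negative, with a median of -0.05 beside -0.01 for all genes. The 95% interval lay within 2-fold in either direction for 30 of the 31, the exception being Itgb6, and for 97% of all genes. Every limma adjusted p of a member was 0.9995.

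**Figure D1:**
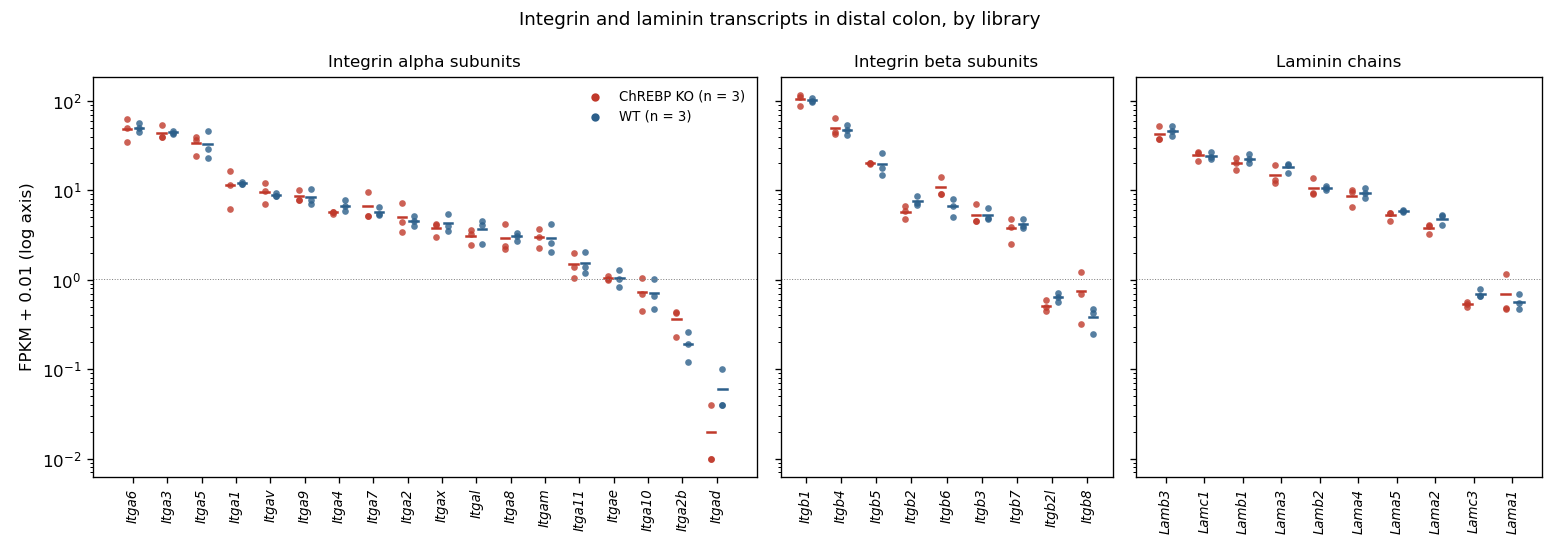
FPKM of 37 of the 38 genes in each library, on a log axis after adding 0.01, with KO (red) left of WT (blue), points for libraries and short lines for group means (n = 3). The dotted line marks 1 FPKM, and Itgad, listed at 0 in 2 KO libraries, sits at the lower end of the axis.

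Among beta subunits Itgb1, the common partner of most alpha subunits, was the most abundant. It read 109.34, 86.86 and 115.43 FPKM in KO libraries, against 98.21, 100.50 and 106.99 FPKM in WT libraries, so the KO values enclosed the WT values (log2 fold change 0.02, 95% interval -0.26 to 0.30). Its share of the summed beta subunit FPKM was 49.0% to 56.4% in KO and 51.5% to 54.2% in WT libraries. Itgb4, which pairs with alpha-6 in the hemidesmosome, averaged 50.4 ± 11.8 FPKM in KO and 47.3 ± 6.45 FPKM in WT (SD, n = 3 each), and Itgb5, a vitronectin receptor subunit, 20.2 ± 0.325 FPKM in KO and 19.6 ± 5.69 FPKM in WT. The other beta genes lay below 15 FPKM in all 6 libraries.

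The laminin-binding alpha subunits led the alpha genes. Itga6, partner of both beta-1 and beta-4, read 62.33, 34.64 and 49.28 FPKM in KO libraries, against 56.16, 49.93 and 44.39 FPKM in WT libraries. KO replicate 1 was the highest and KO replicate 2 the lowest of the 6 (log2 fold change -0.07, SE 0.20). Itga3, the partner of beta-1 in epithelial laminin adhesion, averaged 44.3 ± 7.98 FPKM in KO and 44.4 ± 1.61 FPKM in WT, overlapping Itga6 in both groups. The fibronectin receptor subunit Itga5 followed at 33.7 ± 8.34 FPKM in KO and 32.6 ± 11.8 FPKM in WT, with its highest value in WT replicate 2 (45.88) and its lowest in WT replicate 1 (23.18). Itga7, the laminin receptor subunit of muscle, read 5.12, 5.22 and 9.56 FPKM in KO libraries and 5.49, 5.33 and 6.43 FPKM in WT libraries, and was high in KO replicate 3 alone. That library also had the highest summed smooth muscle markers, 4400 FPKM, against at most 3080 FPKM in the other KO and 3680 FPKM in the WT libraries; the part of muscle content in the result was not tested. In bulk tissue a smaller number of cells of a type and less RNA per cell cannot be told apart.

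Collagen receptor subunits were lower in level. Itga1, which binds collagen IV and is made by muscle and stroma, read 11.52, 6.17 and 16.54 FPKM in KO libraries, against 12.30, 11.87 and 11.66 FPKM in WT libraries. The 3 KO values spread over a wider range (SD 5.19) than the WT values (SD 0.326), on either side of them, and the log2 fold change was -0.15 (95% interval -0.81 to 0.50). Itga2, an epithelial and platelet collagen receptor subunit, averaged 5.01 ± 1.96 FPKM in KO and 4.54 ± 0.575 FPKM in WT, and Itga11, a fibroblast collagen receptor subunit, 1.47 ± 0.487 FPKM in KO and 1.53 ± 0.46 FPKM in WT. Itga10, the cartilage collagen receptor subunit, reached 1 FPKM in only 2 libraries, 1 of each genotype, and was not tested.

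Of the subunits that bind Arg-Gly-Asp motifs and related ligands, Itgav, the partner of beta-3, beta-5, beta-6 and beta-8, averaged 9.67 ± 2.52 FPKM in KO and 8.83 ± 0.365 FPKM in WT. Itgb3 was at 5.31 ± 1.43 FPKM in KO and 5.31 ± 0.846 FPKM in WT, and Itga8, a nephronectin receptor subunit, at 2.92 ± 1.14 FPKM in KO and 3.04 ± 0.329 FPKM in WT. Itga9, which binds tenascin-C and VCAM-1, was at 8.53 ± 1.37 FPKM in KO and 8.45 ± 1.73 FPKM in WT. None of these 4 had groups apart, and their intervals all covered 0. Itgb8, which with Itgav binds latent TGF-beta, was below the filter and read 1.21, 0.31 and 0.68 FPKM in KO libraries and 0.41, 0.24 and 0.46 FPKM in WT libraries.

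Itgb6 had the largest positive fold change of the 31 tested genes. Its product pairs with alpha-V on epithelial cells, where it binds and activates latent TGF-beta, and is known to be induced in wounded epithelium. Itgb6 (NCBI gene 16420) read 14.13, 9.10 and 9.09 FPKM in KO libraries, against 8.06, 6.67 and 5.07 FPKM in WT libraries. All 3 KO values exceeded all 3 WT values, with KO replicate 1 highest, and the gap between the groups was smaller than the spread within either. The log2 fold change was 0.62 (SE 0.20, 95% interval 0.15 to 1.10), with a limma adjusted p of 0.9995. Leaving out 1 library at a time gave log2 fold changes of 0.43 to 0.76, with a smallest limma adjusted p of 0.796. Epithelial markers, 8 of 8 present, had summed levels that overlapped between the groups (5410 to 6450 FPKM in KO and 5330 to 5950 FPKM in WT), and their median log2 fold change was 0.02. KO replicate 1 was the highest library both for Itgb6 and for the epithelial sum. The part of epithelial content in the Itgb6 values was not tested.

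Of the 31 tested genes the groups did not overlap in 4, against 8.67% of all tested genes. Itgb6 was the member higher in KO (4.53% of all genes), and Itgb2, Itga4 and Lama5 were lower in KO (4.14% of all genes). In Itga4 and Lama5 the log2 fold changes were small: Itga4, which pairs with beta-1 or beta-7 on lymphocytes, read 5.48, 5.73 and 5.72 FPKM in KO and 6.60, 7.76 and 5.80 FPKM in WT libraries (log2 fold change -0.21, 95% interval -0.49 to 0.07). Lama5, the main laminin alpha chain under mature colon epithelium, read 5.63, 4.55 and 5.61 FPKM in KO and 5.73, 5.86 and 5.97 FPKM in WT libraries (log2 fold change -0.13, 95% interval -0.40 to 0.13). The nearest values of the 2 groups lay within 0.10 FPKM of each other in both genes, a gap below the SD of each group. Leaving out 1 library at a time gave -0.297 to -0.114 for Itga4, the smallest difference without WT replicate 2, and -0.178 to -0.0498 for Lama5, the smallest without KO replicate 2.

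**Figure D2:**
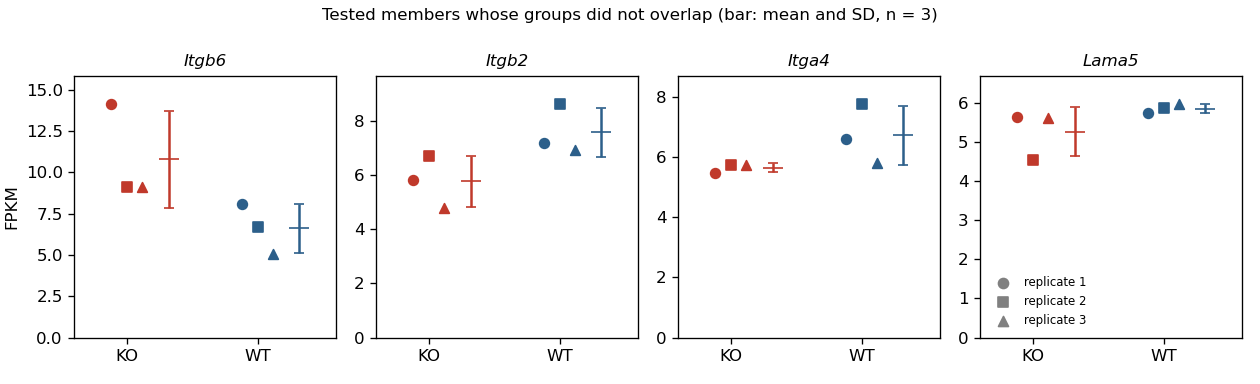
FPKM of the 4 tested genes whose groups did not overlap, with KO left of WT, marker shapes for replicate numbers, and the mean and SD at the right of each group (n = 3). Itgb6 lies at 9.09 to 14.13 in KO and 5.07 to 8.06 in WT, and the other 3 lie lower in KO.

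The promoter sequences of these genes are shown because ChREBP binds E-boxes, and the exact E-box string CACGTG was searched for. RefSeq promoter windows of 300 bases, 250 before and 50 after a start site (assembly GRCm38.p6, a different build from the mm39 of the expression table), were found for 24 of the 38 genes, as 27 windows; Itgb2 had no entry. CACGTG was in 0 of the 27 windows, on either strand, against 7.15% of all 32851 windows. Other forms of the ChREBP response element were not searched for and would be missed. The GC box GGGCGG, on either strand, was in 12 of the 27 windows (44.4%) and 35.7% of all windows. The windows are written 5' to 3' on the gene's strand, with GC boxes in capitals; the strings say nothing of binding.
Itga4 (chr2:79255176-79255475, plus strand): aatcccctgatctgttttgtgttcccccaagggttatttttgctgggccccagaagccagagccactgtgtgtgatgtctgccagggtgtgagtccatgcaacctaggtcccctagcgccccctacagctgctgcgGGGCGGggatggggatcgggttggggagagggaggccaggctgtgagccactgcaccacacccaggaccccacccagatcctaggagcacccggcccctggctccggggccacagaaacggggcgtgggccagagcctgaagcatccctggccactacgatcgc
Itgb6 (chr2:60673644-60673943, minus strand): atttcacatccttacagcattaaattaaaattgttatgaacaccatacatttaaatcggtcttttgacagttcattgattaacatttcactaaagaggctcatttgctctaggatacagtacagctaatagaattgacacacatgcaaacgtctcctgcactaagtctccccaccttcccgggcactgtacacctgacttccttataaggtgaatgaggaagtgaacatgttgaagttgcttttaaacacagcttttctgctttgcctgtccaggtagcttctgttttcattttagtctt
Itgb6 (chr2:60722554-60722853, minus strand): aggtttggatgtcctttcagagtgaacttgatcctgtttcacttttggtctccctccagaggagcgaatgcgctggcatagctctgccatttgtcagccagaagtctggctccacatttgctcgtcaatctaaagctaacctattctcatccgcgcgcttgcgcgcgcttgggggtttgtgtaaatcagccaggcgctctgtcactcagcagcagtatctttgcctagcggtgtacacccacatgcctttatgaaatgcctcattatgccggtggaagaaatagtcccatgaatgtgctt
Lama5 (chr2:180225810-180226109, minus strand): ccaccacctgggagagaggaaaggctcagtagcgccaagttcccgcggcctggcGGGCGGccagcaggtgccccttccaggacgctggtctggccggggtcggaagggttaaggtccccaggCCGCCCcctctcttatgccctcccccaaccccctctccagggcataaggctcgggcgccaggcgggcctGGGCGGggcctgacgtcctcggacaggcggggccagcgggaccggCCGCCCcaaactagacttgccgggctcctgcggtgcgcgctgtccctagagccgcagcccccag
Both Itgb6 windows held 0 GC boxes, the Itga4 window held 1 and the Lama5 window held 4.

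Leukocyte integrins had mostly lower means in KO, none past the test over all genes. Itgb2, the shared beta subunit of the leukocyte receptors LFA-1 and Mac-1, read 5.82, 6.69 and 4.79 FPKM in KO libraries, against 7.18, 8.62 and 6.93 FPKM in WT libraries. Each KO value was below each WT value (log2 fold change -0.35, SE 0.14, 95% interval -0.67 to -0.02, limma adjusted p = 0.9995). Its alpha partners differed in sign. Itgal, the LFA-1 alpha subunit of lymphocytes, averaged 3.08 ± 0.606 FPKM in KO and 3.72 ± 1.08 FPKM in WT, and Itgax, a dendritic cell and macrophage subunit, 3.74 ± 0.653 FPKM in KO and 4.32 ± 0.999 FPKM in WT. Itgam, the Mac-1 subunit of myeloid cells, averaged 3.00 ± 0.721 FPKM in KO and 2.94 ± 1.10 FPKM in WT. All 3 had overlapping groups. WT replicate 2 held the highest value of Itgb2, Itga4, Itgal, Itgax and Itgae, and WT replicate 3 that of Itgam. Leaving out WT replicate 2 gave log2 fold changes of -0.261 for Itgb2, -0.114 for Itga4, -0.0636 for Itgal and -0.0126 for Itgax. It gave -0.124 for Itgam and 0.0916 for Itgae.

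The gut-homing subunits were as close. Itgb7, the partner of alpha-4 in binding MAdCAM-1 and of alpha-E in binding E-cadherin, read 3.90, 4.83 and 2.52 FPKM in KO libraries and 3.95, 4.75 and 3.79 FPKM in WT libraries. The log2 fold change of Itgb7 was -0.0664 without WT replicate 2 and 0.0545 without KO replicate 3. Itgae, the CD103 subunit of intraepithelial lymphocytes, averaged 1.03 ± 0.0513 FPKM in KO and 1.03 ± 0.226 FPKM in WT. Over the 7 tested leukocyte genes, grouped after the values were seen, 5 log2 fold changes were negative and 2 positive, with a median of -0.16. Of all tested genes 52.7% were positive, with a median of 0.01. T cell markers, 7 of 7 listed in the data at any level, had summed levels of 14.3 to 23.6 FPKM in KO and 18.5 to 26.8 FPKM in WT libraries. They had 0 positive and 6 negative fold changes among 6 tested. Macrophage and monocyte markers, 7 of 7 listed, were at 167 to 312 FPKM in KO and 213 to 291 FPKM in WT libraries, with 0 positive and 7 negative among 7. Other leukocyte lists did not share that direction. Neutrophil markers, 6 of 6 listed, were at 173 to 226 FPKM in KO and 171 to 239 FPKM in WT. Most of that sum was Ly6g, at 166.62 to 217.33 FPKM in KO and 165.07 to 232.83 FPKM in WT. Among 5 tested there were 5 positive and 0 negative (median log2 fold change 0.10), with Ly6g rounding to 0. S100a8 and S100a9 were high in KO replicate 1 alone (6.04 and 6.55 FPKM), and Mmp8 did not exceed 0.04 FPKM. B cell markers, 4 of 4 listed, were at 48.8 to 70.6 FPKM in KO and 20.3 to 108 FPKM in WT, with 3 positive and 1 negative among 4 (median 0.07). Mast cell markers, 6 of 6 listed, were at 12.6 to 35.8 FPKM in KO and 16 to 21.6 FPKM in WT, with 2 positive and 1 negative among 3 (median 0.30). Kit alone was at 10.01 to 12.89 FPKM in KO and 10.61 to 11.79 FPKM in WT, and Cpa3, Mcpt4 and Tpsb2 stayed below 1 FPKM. Dendritic cell markers, 5 of 5 listed, were at 2 to 4.36 FPKM in KO and 2.82 to 3.6 FPKM in WT, with 0 of 5 above the filter. The T cell and B cell sums were highest in WT replicate 2, and the neutrophil sum in WT replicate 1. KO replicate 2 had the highest macrophage and monocyte sum and the highest dendritic cell sum, and KO replicate 1 the highest mast cell sum. The summed levels of all 6 marker lists overlapped between the groups, and their part in the level of leukocyte integrins was not tested.

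**Figure D3:**
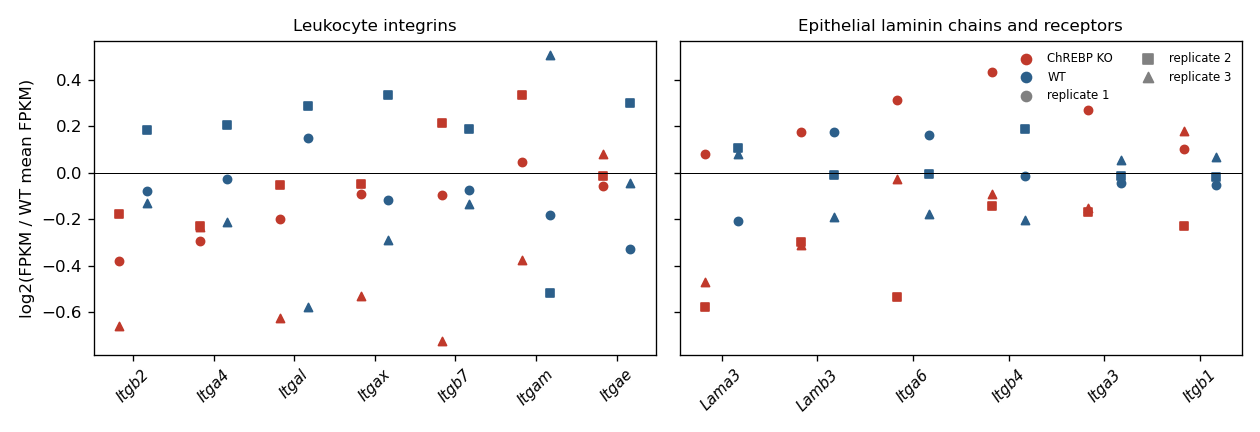
Each library's FPKM relative to the WT mean, as log2 of the ratio, for 7 leukocyte integrin genes and for 6 genes of epithelial laminin chains and their receptors, with KO (red) left of WT (blue) and marker shapes for replicate numbers. The 3 KO points of Itgb2 and Itga4 lie below the WT points, whereas in the second panel KO replicate 1 lies above the other KO replicates in 5 of 6 genes and the groups overlap.

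Lamb3 and Lama3, which encode chains of epithelial laminin, read as follows. Lamb3 had 52.11, 37.59 and 37.19 FPKM in KO libraries, against 52.13, 45.85 and 40.48 FPKM in WT libraries. Lama3 had 19.28, 12.21 and 13.13 FPKM in KO libraries, against 15.76, 19.61 and 19.25 FPKM in WT libraries, with KO replicates 2 and 3 below all WT values and KO replicate 1 among them. The log2 fold changes were -0.13 (SE 0.15) for Lamb3 and -0.30 (SE 0.17) for Lama3. Single libraries moved both: leaving out 1 at a time gave -0.485 (without KO replicate 1, limma adjusted p = 0.796) to -0.176 (without KO replicate 2, limma adjusted p = 0.994) for Lama3, and -0.289 (without KO replicate 1) to -0.0434 (without WT replicate 1) for Lamb3.

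Ratios of chain transcripts were taken within each library, and assembled laminins were not measured. The FPKM ratio of Lamb3 to Lamb2 was 2.71 to 5.76 in KO and 3.66 to 5.11 in WT, and that of Lama3 to Lama5 was 2.34 to 3.42 in KO and 2.75 to 3.35 in WT. For the hemidesmosome integrin, the ratio of Itgb4 to Itga6 was 0.901 to 1.24 in KO and 0.836 to 1.08 in WT. All 3 ratios overlapped between genotypes, and they are described without a test.

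The other laminin chains belong to stromal, muscle and vascular basement membranes as well as to epithelium. Lamc1, in most laminin trimers, averaged 24.8 ± 2.82 FPKM in KO and 24.3 ± 2.05 FPKM in WT, Lamb1 20.0 ± 3.02 FPKM in KO and 22.6 ± 2.72 FPKM in WT, and Lamb2 10.7 ± 2.65 FPKM in KO and 10.7 ± 0.44 FPKM in WT. Lama4, the alpha chain of vessel walls, averaged 8.68 ± 1.96 FPKM in KO and 9.34 ± 1.23 FPKM in WT. Lama2, the alpha chain of muscle and nerve, read 4.07, 3.22 and 3.99 FPKM in KO libraries, against 5.14, 4.07 and 5.25 FPKM in WT libraries. The highest KO value of Lama2 equalled the lowest WT value (log2 fold change -0.29, 95% interval -0.60 to 0.03).

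All 4 tested laminin alpha genes and all 3 beta genes had negative log2 fold changes, and Lamc1 was at 0.02 (SE 0.12). The medians were -0.21 for alpha and -0.13 for beta chains, beside 0.01 for all tested genes. KO replicate 2 was the lowest of the 6 libraries for Lama2, Lama3, Lama4, Lama5 and Lamb1, and without it the medians were -0.11 for alpha and -0.06 for beta chains, with 1 gene of each positive. The beta median was -0.27 without KO replicate 1, -0.20 without KO replicate 3 and -0.05 without WT replicate 1. Lama4 and Lamb2 became positive with limma's library weights, and also when single libraries were left out, and the other 5 kept their sign in every alternative run. Summed over the 5 alpha genes the level was 26.9 to 39.8 FPKM in KO and 36.6 to 41.5 FPKM in WT libraries.

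**Figure D4:**
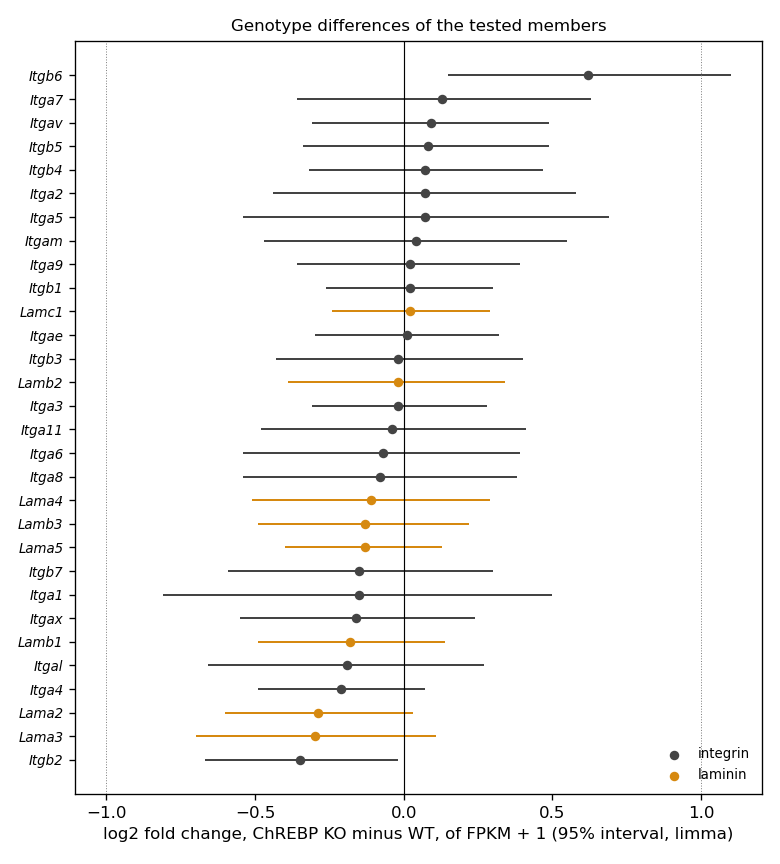
Log2 fold changes of FPKM + 1, KO minus WT, of 30 of the 31 tested genes with limma's 95% intervals, ordered by size, integrins in grey and laminins in orange, with dotted lines at 2-fold. The intervals of Itgb6 and Itgb2 alone leave out 0, and 0 of the 31 passed at an adjusted p of 0.05.

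The 7 genes below the filter were Itga10, Itga2b, Itgad, Itgb2l, Itgb8, Lama1 and Lamc3. Lamc3, the least abundant gamma chain, read 0.48, 0.53 and 0.55 FPKM in KO libraries and 0.77, 0.65 and 0.65 FPKM in WT libraries, with each KO value lower. Lama1, the alpha chain of embryonic basement membranes, read 1.14, 0.47 and 0.46 FPKM in KO and 0.68, 0.54 and 0.46 FPKM in WT libraries. Itga2b, the platelet fibrinogen receptor subunit, read 0.22, 0.42 and 0.43 FPKM in KO and 0.11, 0.18 and 0.25 FPKM in WT libraries, which corresponds to about 13.8 to 26.6 reads in KO and 6.8 to 15.2 in WT. Itgad, a macrophage beta-2 partner, was listed at 0 in 2 KO libraries and did not exceed 0.09 FPKM, about 6.4 reads, in any library. Itgb2l, a mouse relative of Itgb2 without a known alpha partner, averaged 0.503 ± 0.0709 FPKM in KO and 0.63 ± 0.08 FPKM in WT.

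Libraries of 1 genotype differed from each other across both families, with a wider range of summed levels in KO than in WT. KO replicate 2 had the lowest value of the 6 libraries in 14 of the 31 tested genes (45.2%), and the highest in 1, Itgb7. Over all 13247 genes it was lowest in 18.4% and highest in 25.7%. KO replicate 1 was the highest in 8 of the 31 genes (25.8%, against 17.2% of all genes), among them Itga6, Itgb4, Itga3 and Itgb6. WT replicate 2 was also the highest in 8 of the 31 (25.8%, against 12% of all genes). Summed integrin FPKM was 441, 328 and 405 in KO replicates 1 to 3 and 372, 401 and 380 in WT replicates 1 to 3, and summed laminin FPKM was 191, 134 and 153 in KO and 169, 166 and 161 in WT. Without KO replicate 2 the log2 fold changes were positive for 19 and negative for 12 of the 31, with a median of 0.06.

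**Figure D5:**
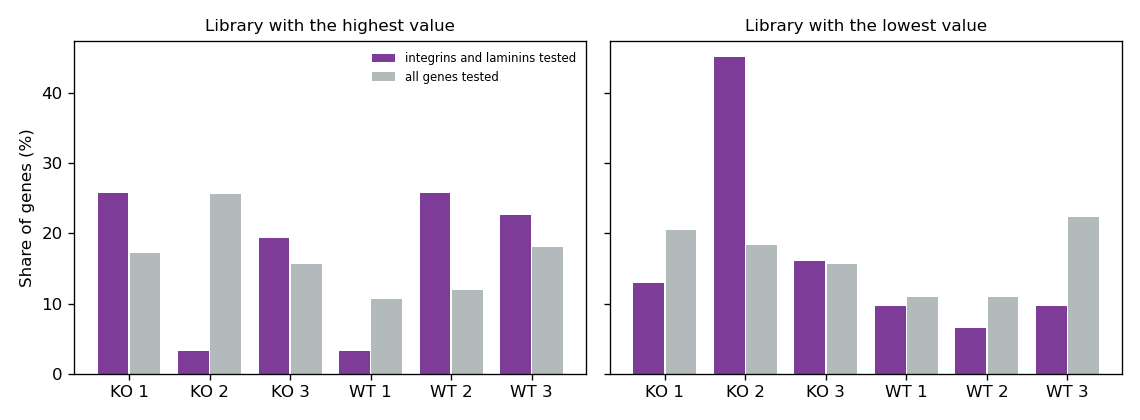
Share of genes, in percent, for which each library held the highest (left) or the lowest (right) of the 6 values, for the 31 tested integrin and laminin genes (purple) and all 13247 tested genes (grey), with ties left out. KO replicate 2 was lowest in 45.2% of the 31 genes and in 18.4% of all genes.

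Genes that carry integrin signals inside the cell gave no call. Of 34 tested genes of the adhesion machinery 20 had positive and 14 negative log2 fold changes (median 0.02), 0 were called, and 1 had an unadjusted limma p under 0.05, Tns2 (lower in KO, named after its values were seen). Tln1, the talin that activates integrins, averaged 34.9 ± 3.03 FPKM in KO and 31.2 ± 3.28 FPKM in WT. The kindlin genes were at 30.4 ± 3.17 FPKM in KO and 29.5 ± 0.713 FPKM in WT for epithelial Fermt1, 25.8 ± 7.90 FPKM in KO and 24.2 ± 2.79 FPKM in WT for Fermt2, and 4.43 ± 0.637 FPKM in KO and 4.61 ± 1.27 FPKM in WT for Fermt3 of blood cells. Ilk, the integrin-linked kinase gene, was at 57.6 ± 5.92 FPKM in KO and 57.4 ± 3.80 FPKM in WT. Ptk2, the focal adhesion kinase gene, was at 14.6 ± 2.63 FPKM in KO and 14.2 ± 0.932 FPKM in WT. The scaffold genes Pxn (paxillin) and Vcl (vinculin) had log2 fold changes of 0.03 and 0.10.

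Partners of laminins in the basement membrane were close between genotypes. Of 20 tested genes 12 had positive and 8 negative log2 fold changes (median 0.02), with 0 called and 0 at an unadjusted limma p under 0.05. The collagen IV chain Col4a1 read 90.76, 60.56 and 72.00 FPKM in KO libraries, against 63.63, 65.56 and 64.91 FPKM in WT libraries, and Col4a2 had a log2 fold change of 0.20 beside 0.18 for Col4a1. Nid1, the nidogen that links laminin to collagen IV, averaged 27.5 ± 3.62 FPKM in KO and 26.0 ± 0.26 FPKM in WT, and Hspg2, the perlecan gene, 21.1 ± 3.94 FPKM in KO and 19.9 ± 1.39 FPKM in WT. Nid2, Agrn (agrin), Npnt (nephronectin), the laminin receptor Dag1 (dystroglycan) and Bcam, which binds laminin alpha-5, had log2 fold changes between -0.07 and 0.06. Of 10 tested hemidesmosome and tetraspanin genes 8 were positive and 2 negative (median 0.04), with 0 called and 0 at an unadjusted limma p under 0.05. Plec, the plectin that ties beta-4 to keratin, averaged 54.1 ± 13.8 FPKM in KO and 52.0 ± 8.54 FPKM in WT, Dst 14.3 ± 2.17 FPKM in KO and 15.9 ± 0.47 FPKM in WT, and Cd151, a tetraspanin partner of laminin-binding integrins, 88.4 ± 3.08 FPKM in KO and 83.4 ± 7.77 FPKM in WT. Col17a1, the collagen of skin-type hemidesmosomes, did not exceed 0.18 FPKM in any library.

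Other integrin ligands were likewise without a call. Of 23 tested matrix ligands 13 had positive and 10 negative log2 fold changes (median 0.00), with 1, Ctgf, at an unadjusted limma p under 0.05 (lower in KO, named after its values were seen). Fn1, fibronectin, read 134.47, 79.67 and 160.91 FPKM in KO libraries, against 115.63, 131.97 and 113.41 FPKM in WT libraries, with KO values on either side of WT as for Itga1. Tnc (tenascin-C) averaged 20.6 ± 3.93 FPKM in KO and 18.8 ± 2.37 FPKM in WT, and Thbs1 17.8 ± 6.98 FPKM in KO and 16.1 ± 3.21 FPKM in WT. Vtn (vitronectin) had a log2 fold change of -0.04, and Spp1 (osteopontin) reached 1 FPKM in WT replicate 3 alone. Of 10 tested cell surface ligands 7 were positive and 3 negative (median 0.03), again with 0 called and 0 at an unadjusted limma p under 0.05. Cdh1, E-cadherin, averaged 345 ± 30.4 FPKM in KO and 345 ± 26.5 FPKM in WT. Madcam1, the vessel ligand of the alpha-4 beta-7 integrin, read 9.63, 4.86 and 3.15 FPKM in KO libraries and 4.92, 6.33 and 2.46 FPKM in WT libraries. Vcam1 averaged 6.27 ± 1.14 FPKM in KO and 8.40 ± 2.70 FPKM in WT (95% interval of the log2 fold change -0.84 to 0.16), Icam1 6.12 ± 0.887 FPKM in KO and 6.55 ± 0.817 FPKM in WT, and Icam2 2.50 ± 0.253 FPKM in KO and 2.33 ± 0.896 FPKM in WT.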

How the data were processed

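Distal colon libraries of 3 ChREBP knockout and 3 wild-type mice were compared, grouped by the genotype label and numbered by title. The authors deposited 1 table of FPKM values for 19844 genes; per the submitters' processing notes HISAT2, RSEM and the mm39 build were used, while versions, filters and annotation were not given in the sources used here. Per the labels' protocols, poly-A RNA was copied with random primers and no step that marks strand is named, so a gene and its antisense partner may share reads. The 13247 genes that reached 1 FPKM in 3 or more libraries were tested as log2(FPKM + 1) with limma 3.58.1 in R 4.3.3 (eBayes with trend, two-sided, genotype as sole term, 4 residual degrees of freedom, Benjamini-Hochberg over all tested genes, threshold 0.05). SE and 95% intervals are limma's, and the median gene had an SE of 0.133. The limma fit was tested on simulated data. The changes added there were all larger than the fold change of any member. Means carry SDs with n = 3 mice.

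Depth came from 383 short non-coding genes of up to 150 bases: with a length offset of 36 bases, 86.3% to 91% of 109 to 132 values per library lay within 0.05 of a whole read. Approximate reads of a gene are FPKM times its longest GENCODE M21 transcript linked to the deposited RefSeq transcripts, times depth. Reads were not recovered for long genes, so no count test was run. The genes named are those selected by symbol, Mlxipl and 31 fixed genes of 5 lists around them; of those selected by symbol, 1 is not reported here. Eif2s3y and Xist were named to check the sex label, and Tns2 and Ctgf after their values were seen. Ly6g, S100a8, S100a9, Mmp8, Kit, Cpa3, Mcpt4 and Tpsb2 are markers from the summed lists, also named after their values were seen. The members and lists were chosen with earlier results of these data known, and the leukocyte and epithelial laminin groupings, by known role, after the values were seen. Alternatives were another pseudocount, 2 filters, 2 scalings, no trend, library weights, a replicate block and leaving out each library. Figures were drawn with matplotlib 3.10.9 in Python 3.11.15.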

Additional observations from a re-analysis of the deposited data

How the results depend on the processing

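No integrin or laminin gene passed at an adjusted p of 0.05 under any of the 14 alternatives (0 in each; smallest adjusted p 0.796, without KO replicate 1), with 1 to 4 of them at an unadjusted limma p under 0.05. Over all genes limma called 2, against 3 each with log2(FPKM + 0.1), with no filter, with no trend and with library weights, 2 with either rescaling, 0 with the 5 FPKM filter, 0 with the replicate block and between 0 and 1 when 1 library was left out, with 323 to 807 genes then at an unadjusted p under 0.05. Itgb6 and Itgb2 kept their signs in all 14 alternatives. Without the filter, Lamc3 and Itga2b were also at an unadjusted limma p under 0.05, and Itgb2 was not. Itgb2 was not under that threshold without KO replicate 1, KO replicate 3, WT replicate 1 or WT replicate 2 either. Without WT replicate 3, Itga4, Itgal, Itgb5 and Itgb2 were under it, and Itgb6 was not. Lama3 was under it without KO replicate 1, and Lama2 without WT replicate 2. The residuals of same-numbered KO and WT libraries correlated at 0.27, -0.10 and 0.06 across genes. Those of unlike-numbered libraries correlated at -0.29 to 0.25, so these values cannot tell whether the numbers pair the mice. With the replicate block Itgb6, Itgb2 and Lama2 were at an unadjusted limma p under 0.05. For Itgb6 that limma p was 0.00211, against 0.0161 in the main fit. The smallest adjusted p of a member with the block was 0.993.

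Small differences changed sign. With libraries rescaled to the same total the log2 fold changes turned to negative for Itga9 (-0.00498), Itgae (-0.00496), Itgb1 (-0.00811), Lamc1 (-0.00259), Ilk (-0.0237), Npnt (-0.00645) and Cdh1 (-0.0252), and with median ratio scaling for Ilk (-0.00733) and Cdh1 (-0.00859). With limma's library weights the sign turned for Itga1 (0.0194), Itga11 (0.0245), Itga8 (0.0553), Itgb3 (0.148), Itgb4 (-0.0139), Lama4 (0.0111), Lamb2 (0.0887), Plec (-0.0595), Fn1 (0.107), Vtn (0.0412), Icam2 (-0.0607) and Madcam1 (-0.0773), giving 18 positive and 13 negative members. Leaving out 1 library turned the sign of these genes, given with their lowest and highest log2 fold changes: Cdh1 -0.0499 to 0.0737, Dag1 -0.153 to 0.057, Fermt1 -0.0431 to 0.0863, Fermt2 -0.171 to 0.178, Fermt3 -0.162 to 0.146, Fn1 -0.212 to 0.291, Hspg2 -0.0401 to 0.219, Icam1 -0.18 to 0.0136, Icam2 -0.121 to 0.282, Ilk -0.0797 to 0.0555, Itga1 -0.45 to 0.196, Itga11 -0.186 to 0.104, Itga2 -0.176 to 0.271, Itga3 -0.157 to 0.0585, Itga5 -0.136 to 0.341, Itga6 -0.267 to 0.148, Itga7 -0.126 to 0.267, Itga8 -0.306 to 0.0532, Itga9 -0.0969 to 0.161, Itgae -0.0678 to 0.0916, Itgam -0.124 to 0.256, Itgav -0.0693 to 0.28, Itgb1 -0.0627 to 0.14, Itgb3 -0.195 to 0.0914, Itgb4 -0.107 to 0.177, Itgb5 -0.0866 to 0.29, Itgb7 -0.309 to 0.0545, Lama4 -0.212 to 0.0701, Lamb2 -0.205 to 0.0714, Lamc1 -0.033 to 0.116, Madcam1 -0.108 to 0.57, Nid1 -0.0173 to 0.168, Nid2 -0.236 to 0.0839, Npnt -0.107 to 0.0685, Plec -0.154 to 0.176, Ptk2 -0.0972 to 0.144, Pxn -0.0197 to 0.0778, Thbs1 -0.145 to 0.425, Vcl -0.0164 to 0.229 and Vtn -0.143 to 0.0462. The cause was not tested. Depth limits Itgad, at about 6.4 reads or fewer per library, the most.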
